A study of Mus musculus with 20 samples.

Results

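Mitosis genes encode the proteins that carry a cell through division, from the kinase that starts it to the ring that splits the cell. A list of 40 such genes was followed in mouse liver and liver tumours on Affymetrix arrays, which read a gene's RNA through groups of short probes called probe sets. A gene was taken into the analysis where a probe set named that gene alone, and where several did, the one with the highest mean over the 20 arrays was used. This gave 39 of the 40 genes, among 18193 genes measured in the same way. Ccnb1, the gene of cyclin B1, had no probe set that named it alone in the annotation used and was not analysed here.

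All samples came from male C57BL/6 mice with the genotype conditional APCko, so the controls carried the allele as well. Apc is the gene of a scaffold protein that holds back Wnt signalling. Its recombination is triggered by tamoxifen, of which each mouse received 0.75 mg at 6 weeks of age according to the sample protocols. The series design names an initiating dose of DEN, a liver carcinogen, in its place, and both statements are given here because the sources do not settle it. Starting 1 week later, and for 9 months, the mice ate standard chow or a diet with 0.05% phenobarbital, a sedative that promotes liver tumours in rodents. Non-tumour liver formed the groups H2O_NT (no phenobarbital, called untreated here) and PB_NT (phenobarbital). Tumours formed the groups APCko_Carcinoma (no phenobarbital) and APCko_Adenoma (phenobarbital). Each group had 5 arrays. Diet and tumour stage changed together between the tumour groups, so their effects cannot be told apart. No label ties a sample to a mouse, so p-values measure the spread between the samples as deposited, which may be technical. What drives the recombination and which part of Apc is deleted was not stated in these sources.

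As background, entry into mitosis is set off by Cdk1 bound to cyclin A or B, helped by the Polo and Aurora kinases. Chromosomes condense, attach through kinetochores to spindle microtubules, and are held until the spindle checkpoint releases the anaphase-promoting complex, which destroys cyclin B and the brake on sister separation. Adult hepatocytes rarely divide, and liver after injury and liver tumours are known for switching these genes on together. Many of these genes are repressed in resting cells by the DREAM complex through a short promoter element called CHR, the cell cycle genes homology region, and are driven through CCAAT boxes bound by NF-Y.

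The promoters are shown first, as a description. Their part in the changes given below was not tested. RefSeq windows of 300 bases (assembly GRCm38.p6, 250 before to 50 after a transcript start) matched 34 of the 40 listed genes with 36 windows. No window was in the table for Aurkb, Ccna2, Foxm1, Kif20a, Pbk and Tpx2. For the CHR, the letters searched on both strands were TTTGAA. The variant TTCGAA, which reads alike from both strands, was counted as well. From the opposite strand the first of these appears as TTCAAA. The CCAAT box was searched as CCAAT. On the opposite strand it appears as ATTGG. The motifs can share an end letter where they meet. CHR letters were in 80.6% of the 36 windows, against 19.2% of all 32851 windows in the table. They began within 50 bases of the start in 75% of the mitosis windows and 5.31% of all windows. CCAAT letters were in 75% against 37.4%, and both kinds in 69.4% against 7.52%. At least 2 CCAAT letters were found in 52.8% against 11.7%, and a pair on 1 strand spaced 30 to 36 bases apart in 19.4% against 1.27%. Windows of DNA replication genes, 33 in number, had CHR letters in 18.2% and CCAAT letters in 60.6%. A match is a description of the letters and not a bound site.

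The windows below, 120 bases before to 30 after the start, are those of 6 genes with both motifs and of Nuf2, which had neither. Motif letters are in capitals, and each is read 5′ to 3′ along the gene.
Ccnb2, chr9:70421525-70421674, minus strand: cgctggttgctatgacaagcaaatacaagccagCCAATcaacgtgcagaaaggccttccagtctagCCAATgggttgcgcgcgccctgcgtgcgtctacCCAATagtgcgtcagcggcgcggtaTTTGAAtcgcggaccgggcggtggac
Cdc20, chr4:118437314-118437463, minus strand: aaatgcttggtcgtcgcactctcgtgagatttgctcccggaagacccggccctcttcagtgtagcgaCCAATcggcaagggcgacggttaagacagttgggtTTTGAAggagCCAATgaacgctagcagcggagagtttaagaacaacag
Ube2c, chr2:164769809-164769958, plus strand: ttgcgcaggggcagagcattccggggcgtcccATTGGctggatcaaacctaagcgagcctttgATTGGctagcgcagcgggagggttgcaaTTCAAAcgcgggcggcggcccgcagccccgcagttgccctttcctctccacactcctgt
Bub1, chr2:127831830-127831979, minus strand: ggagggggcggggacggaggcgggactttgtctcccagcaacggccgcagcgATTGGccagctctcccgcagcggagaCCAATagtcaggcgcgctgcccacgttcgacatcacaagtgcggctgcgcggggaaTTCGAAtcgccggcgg
Top2a, chr11:99024160-99024309, minus strand: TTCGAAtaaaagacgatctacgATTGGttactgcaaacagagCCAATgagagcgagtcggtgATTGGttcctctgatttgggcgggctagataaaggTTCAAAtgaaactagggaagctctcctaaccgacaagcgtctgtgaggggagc
Kif11, chr19:37376262-37376411, plus strand: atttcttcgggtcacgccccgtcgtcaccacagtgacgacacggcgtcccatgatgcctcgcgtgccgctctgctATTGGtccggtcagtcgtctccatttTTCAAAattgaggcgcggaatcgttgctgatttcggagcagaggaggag
Nuf2, chr1:169531435-169531584, minus strand: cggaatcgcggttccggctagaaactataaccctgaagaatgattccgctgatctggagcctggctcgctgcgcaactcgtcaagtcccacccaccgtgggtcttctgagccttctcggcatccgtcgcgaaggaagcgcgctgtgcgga

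In the window printed, Ccnb2 carried CCAAT 3 times on the coding strand, starting at positions -87, -54 and -21, and TTTGAA at position 5, where the start base is position 1 and the base before it -1. In that of Ube2c both motifs lay in the other orientation. The transcript start used was the gene's outer bound in RefSeq for 19 of the 36 windows, so another start could give other letters. Among the 34 genes, 23 had both kinds of letters in the windows used and 5 had neither, which were Birc5, Mad2l1, Melk, Nuf2 and Nusap1. Ccnb1 and Cenpe had CCAAT but no CHR letters, while Anln, Cdca5, Kif2c and Ndc80 had CHR but no CCAAT letters. The map of motif positions shows most CHR letters close to the start and the CCAAT letters upstream of them. The 5 genes with neither motif in the window all rose in both tumour groups, as given below, and so did most of the genes with both.

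**Figure D1:**
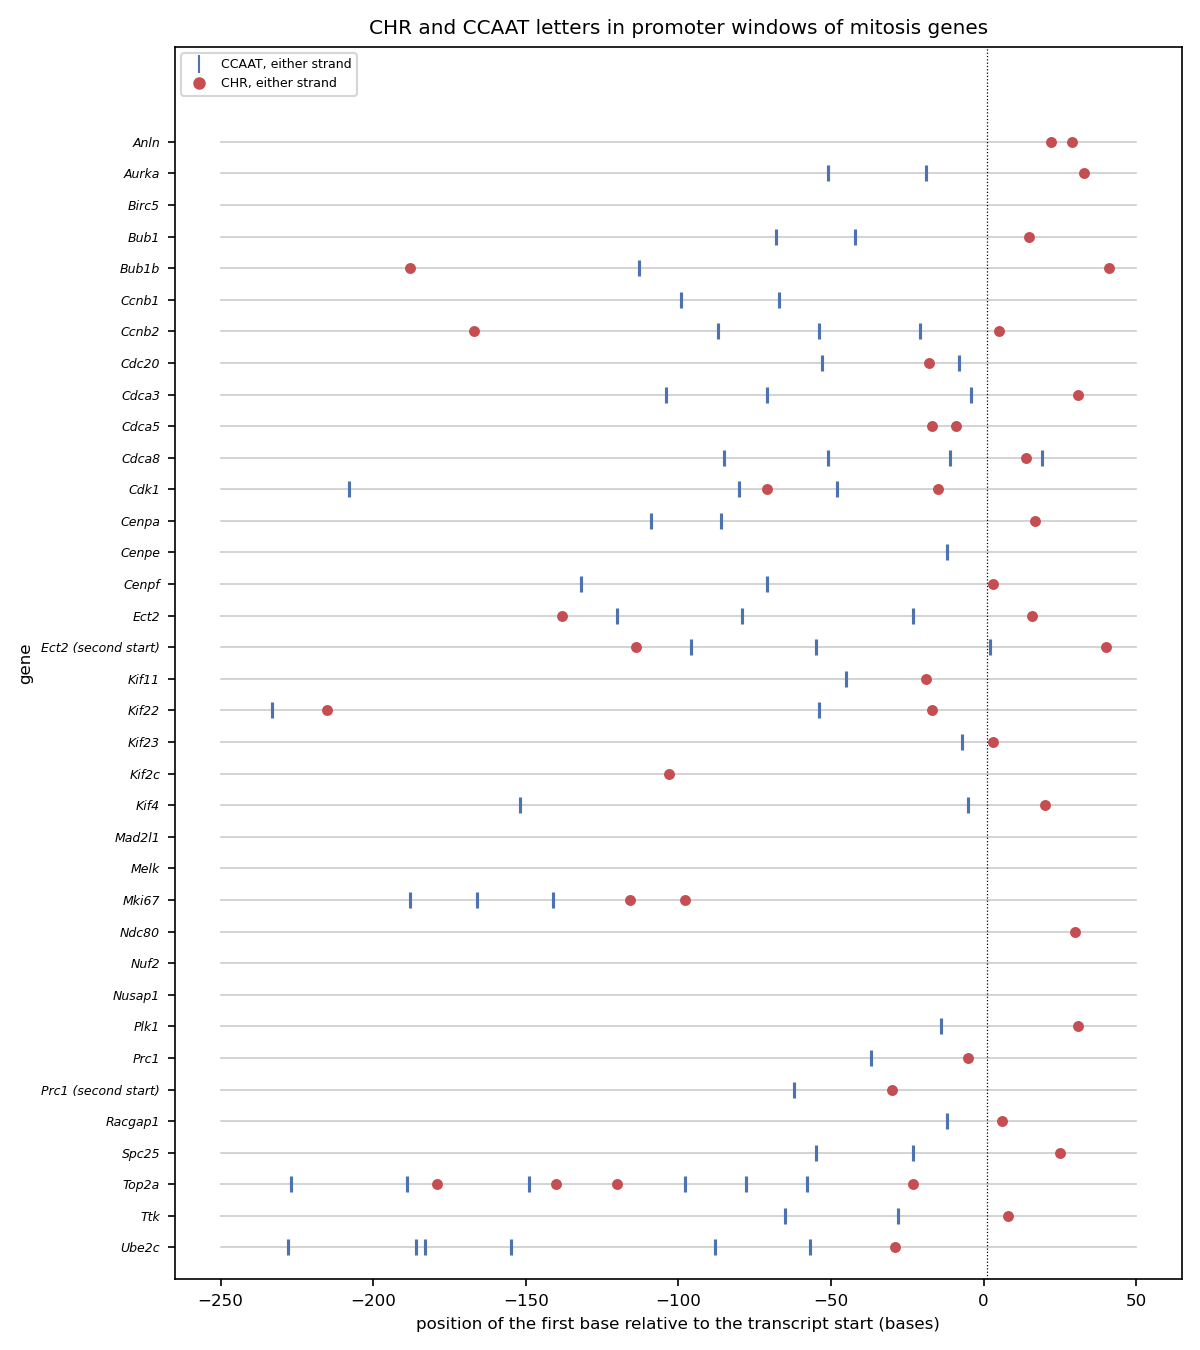
Positions of CHR letters (circles) and CCAAT letters (bars) in the 36 RefSeq promoter windows of 34 mitosis genes, in bases relative to the transcript start (dotted line). CHR letters lie within 50 bases of the start in 75% of the windows, and CCAAT letters lie mostly before it.

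The deposited table held log2 expression values of 45037 probe sets, ranging from 2.67 to 15.1, with array medians between 5.52 and 5.63. A difference of 1 on this scale is a 2-fold change, and levels of different probe sets are not comparable with each other. Apc itself read 8.64 to 8.97 on untreated arrays, 8.43 to 8.71 on phenobarbital arrays, 10.53 to 10.97 on carcinoma arrays and 8.79 to 9.25 on adenoma arrays, and since every group carries the allele this checks no label. The 9 measured hepatocyte markers, such as Alb and Apoa1, had a mean level of 13.6 to 13.8 on the untreated arrays and 13.4 to 13.5 on the phenobarbital arrays. On the adenoma arrays it was 12.6 to 13.5, and on the carcinoma arrays 6.86 to 10.2. The label liver therefore held by these markers in non-tumour liver, and the carcinomas were low in them. No pair of arrays was identical.

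Phenobarbital left the mitosis genes of non-tumour liver without a called change. None of the 39 genes passed limma's moderated test with Benjamini-Hochberg adjustment at 0.05, and 0 passed at an unadjusted p under 0.05 either. Of all genes, 0.225% passed with adjustment and 5.88% without. The median log2 fold of the 39 genes was -0.13, against 0.00 for all genes, and 9 of them lay above 0. Log2 folds ran from -0.58 for Nusap1 to 0.25 for Ect2, with SEs of 0.38 and 0.36. The 95% interval for Mki67, the gene of the Ki-67 proliferation antigen, was -1.16 to 0.59. Changes anywhere in that range were compatible with these 5 arrays a group, and the interval is not a limit of detection. In each of the 39 genes the groups overlapped, whereas of all genes 2.43% were higher and 2.27% lower without overlap.

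Within untreated liver, arrays 3 and 4 stood above the others. They were the highest of their group for 18 and 14 of the 39 genes, and arrays 1 and 2 the lowest for 17 and 16. The mean level of the stellate cell and fibroblast markers, a list of 10 genes such as Col1a1, was 8.86 and 8.75 on arrays 3 and 4 and 7.89 to 8.21 on the other 3. Other marker lists differed. Endothelial means were also highest on arrays 3 and 4 (7.73 and 7.53). Erythroid means (5.50 and 5.44) and neutrophil and myeloid precursor means (5.40 and 5.29) were lowest there. The macrophage and Kupffer cell mean was 8.65 and 8.86 there and 8.84 on array 1. The part of these cells in the difference was not tested. Without arrays 3 and 4, the log2 fold of Mki67 with phenobarbital was 0.38 and that of Top2a 0.08, in place of -0.29 and -0.42. The median of the 39 genes was then 0.15 in place of -0.13, and no gene was called.

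In tumours nearly the whole list was higher. In carcinomas against untreated liver, 34 of 39 genes rose, 1 fell (Foxm1) and 4 were not called (Aurka, Kif2c, Kif4 and Spc25). Of all genes, 31.5% rose and 37.7% fell, so 69.2% were called. Of the called genes 45.59% were higher, and 33.03% with each array centred on its median, a scaling that moved the median of all genes from -0.12 to -0.34 and left all members that rose except Ndc80 called. The median log2 fold of the list was 1.85 against -0.12 for all genes, and 32 of the genes that rose did so at least 2-fold (16.9% of all genes). In 30 genes every carcinoma array lay above every untreated array, as was the case for 25.6% of all genes. In adenomas against phenobarbital-treated liver, 35 of 39 genes rose, 0 fell and 4 were not called (Foxm1, Kif2c, Kif23 and Ndc80). Of all genes, 13.5% rose and 11.3% fell, so 24.7% were called, with 54.45% of the called genes higher and 38.9% with median centring. The median log2 fold was 1.61 against -0.03, 34 genes rose at least 2-fold (4.01% of all genes), and in 34 the groups did not overlap (10.4% of all genes). These tumour comparisons share no arrays: 32 genes rose in both. Kif23 and Ndc80 were called higher in carcinomas and not in adenomas, and Aurka, Kif4 and Spc25 in adenomas and not in carcinomas. Of these 5 genes, Spc25 alone was called when the difference itself was tested, as given below. Kif2c was called in neither group. In bulk tissue, a smaller or larger share of dividing cells and a change in RNA per cell cannot be told apart.

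Markers of cell types were read as well, and the part of tissue composition in these results was not tested. In bulk tissue, marker levels do not separate the number of cells from the RNA per cell. The counts below stand beside 31.5% of all genes that rose and 37.7% that fell in carcinomas. In adenomas these shares were 13.5% and 11.3%. In carcinomas all 9 measured hepatocyte markers were called lower, 7 of 10 endothelial markers were called lower, and 7 of 10 stellate cell and fibroblast markers were called higher and 1 lower. The mean level of the stellate list was 10.1 to 11.3 in carcinomas and 7.89 to 8.86 in untreated liver. T and NK cell markers had 3 higher and 4 lower of 7, with a mean level of 5.53 to 6.08 in carcinomas and 5.58 to 5.99 in untreated liver. Erythroid markers, of cells that divide as precursors, had 0 higher and 4 lower of 7. Macrophage and Kupffer cell markers had 2 higher and 5 lower of 10, B and plasma cell markers 5 lower of 7, neutrophil and myeloid precursor markers 5 lower of 9, and cholangiocyte markers 1 higher and 1 lower of 6. In adenomas 1 of 9 hepatocyte markers was called lower, 4 of 10 stellate markers higher and 3 lower, 2 of 10 endothelial markers higher and 1 lower, and 1 of 10 macrophage markers higher and 5 lower. T and NK cell markers had 0 calls of 7 there, B cell markers 0 of 7, erythroid markers 1 lower of 7, neutrophil markers 1 higher of 9 and cholangiocyte markers 1 higher of 6.

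**Figure D2:**
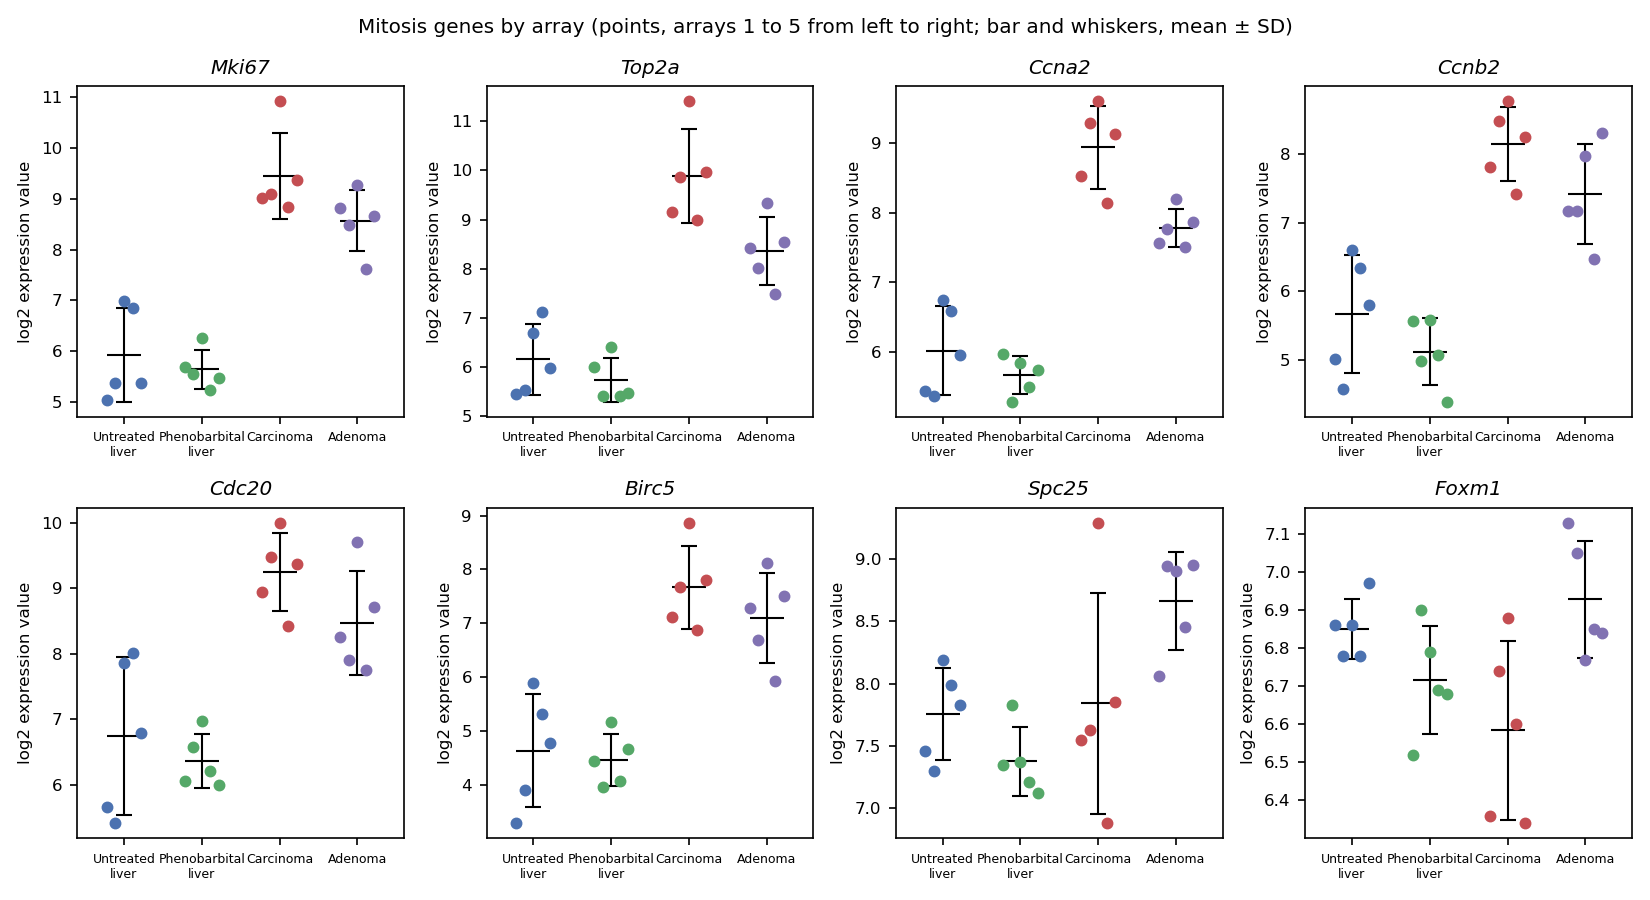
Log2 expression values of 8 mitosis genes on each array (points, arrays 1 to 5 of a group from left to right), with the mean and SD of each group of 5. Mki67, Top2a, Ccna2, Ccnb2, Cdc20 and Birc5 are higher on all tumour arrays than on the arrays of the matching non-tumour group, while the carcinomas are not in Spc25 and Foxm1.

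Values are given below as log2 expression values on arrays 1 to 5 of a group, in that order. Folds, SEs and adjusted p-values come from limma with Benjamini-Hochberg adjustment over all 18193 genes. Of the 3 genes of chromosome structure, all rose in both tumour groups, and Top2a and Mki67 had the largest carcinoma changes of the 39. Mki67 marks dividing cells and coats mitotic chromosomes. It read 5.04, 5.37, 6.98, 6.86 and 5.38 in untreated liver and 5.69, 5.56, 6.27, 5.23 and 5.47 with phenobarbital. In carcinomas it read 9.02, 9.09, 10.92, 8.84 and 9.37, and in adenomas 8.82, 8.48, 9.27, 7.62 and 8.66. All tumour arrays stood clear of the non-tumour arrays, and carcinoma array 3 stood above the other carcinomas. Mki67 was 11.5-fold higher in carcinomas (log2 fold 3.52, SE 0.42, adjusted p = 3.8e-07) and 7.61-fold higher in adenomas (2.93, adjusted p = 4.3e-05). Top2a encodes the topoisomerase that untangles sister chromatids. Its untreated values were 5.46, 5.54, 6.70, 7.11 and 5.97, and those with phenobarbital 5.99, 5.41, 6.40, 5.41 and 5.47. Carcinomas gave 9.16, 9.86, 11.41, 8.99 and 9.96, and adenomas 8.43, 8.02, 9.34, 7.48 and 8.54. No tumour value fell into the range of its controls. The log2 folds were 3.72 in carcinomas (SE 0.42, adjusted p = 2e-07) and 2.63 in adenomas (adjusted p = 0.00014). Cdca5 encodes sororin, which keeps sister chromatids joined. It read 4.36, 4.35, 5.23, 5.64 and 5.46 in untreated liver, and 5.36, 4.28, 4.94, 4.67 and 4.56 with phenobarbital. In carcinomas the values were 5.76, 6.32, 7.52, 5.68 and 6.67, and in adenomas 6.73, 6.81, 7.61, 5.70 and 6.68. Carcinoma array 4 lay just above the highest untreated array, and adenoma array 4 was the lowest of the adenomas. Cdca5 rose by 1.38 in carcinomas (SE 0.37, adjusted p = 0.0025) and by 1.94 in adenomas (adjusted p = 0.00061).

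Of the 7 measured cyclins, Cdk1 and regulators of mitotic entry, 6 rose in carcinomas and Foxm1 fell, and 6 rose in adenomas. Cdk1 is the kinase that drives entry into mitosis. It read 6.16, 5.92, 7.15, 7.21 and 6.06 in untreated liver and 6.35, 6.24, 6.91, 6.13 and 6.10 with phenobarbital. Carcinoma values were 7.92, 8.74, 10.06, 7.91 and 8.65, and adenoma values 7.98, 8.15, 9.47, 7.44 and 8.09. The tumours lay above their controls throughout. Cdk1 rose by 2.16 in carcinomas (SE 0.39, adjusted p = 8.1e-05) and by 1.88 in adenomas (adjusted p = 0.0016). Ccna2 encodes cyclin A2, a partner of Cdk2 in S phase and of Cdk1 at mitotic entry. Untreated arrays gave 5.44, 5.37, 6.75, 6.59 and 5.96, and phenobarbital arrays 5.97, 5.29, 5.84, 5.50 and 5.74. In carcinomas Ccna2 read 8.53, 9.28, 9.60, 8.14 and 9.13, and in adenomas 7.56, 7.76, 8.20, 7.51 and 7.87. Adenoma array 3 was the only adenoma to reach the lowest carcinoma. Its log2 fold was 2.91 in carcinomas (SE 0.28, adjusted p = 1.8e-08) and 2.11 in adenomas (adjusted p = 1.8e-05). Ccnb2 encodes cyclin B2, whose destruction ends mitosis. It read 5.02, 4.58, 6.60, 6.34 and 5.80 in untreated liver and 5.57, 4.99, 5.58, 5.07 and 4.39 with phenobarbital. Carcinomas read 7.81, 8.49, 8.78, 7.43 and 8.26, and adenomas 7.18, 7.17, 7.98, 6.48 and 8.31. Neither tumour group overlapped with its controls. Ccnb2 rose by 2.49 in carcinomas (SE 0.39, adjusted p = 1.4e-05) and by 2.30 in adenomas (adjusted p = 0.00023).

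Pbk, the gene of a mitotic kinase, gave 5.15, 4.78, 6.26, 6.23 and 5.31 in untreated liver and 5.73, 5.18, 6.03, 5.20 and 5.20 with phenobarbital. Carcinoma values were 8.11, 9.03, 9.77, 7.86 and 8.99, and adenoma values 7.02, 7.39, 8.63, 6.59 and 8.60. Tumour and control values were apart in both comparisons. Pbk rose 9.24-fold in carcinomas (log2 fold 3.21, SE 0.42, adjusted p = 1.3e-06) and 4.53-fold in adenomas (adjusted p = 0.00071). Melk encodes another kinase made in dividing cells. Its untreated values were 4.61, 4.61, 4.55, 5.14 and 4.44, and with phenobarbital they were 4.80, 4.21, 4.44, 4.44 and 4.28. It read 6.24, 6.80, 7.59, 7.02 and 6.54 in carcinomas and 5.07, 5.49, 6.62, 5.18 and 5.41 in adenomas. A single adenoma array, number 3, reached into the carcinoma range. Melk rose by 2.17 in carcinomas (SE 0.26, adjusted p = 3.9e-07) and by 1.12 in adenomas (adjusted p = 0.0035). Cdca3, a gene whose protein helps to degrade the kinase Wee1, rose by 0.93 in carcinomas (SE 0.32, adjusted p = 0.016) and by 1.96 in adenomas (adjusted p = 0.00018). Its carcinoma call ended without carcinoma array 3 (adjusted p = 0.053), without untreated array 1 (adjusted p = 0.052), with quantile normalization (0.72, adjusted p = 0.061) and with its probe sets averaged (log2 fold 0.04, adjusted p = 0.77).

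Foxm1 went the other way in carcinomas. It encodes the transcription factor that activates many genes of this list in G2. Untreated arrays read 6.86, 6.78, 6.86, 6.78 and 6.97, and phenobarbital arrays 6.52, 6.90, 6.79, 6.69 and 6.68. Carcinoma arrays read 6.36, 6.74, 6.88, 6.60 and 6.34, and adenoma arrays 7.13, 7.05, 6.77, 6.85 and 6.84. The differences were small, and only 1 carcinoma array lay within the untreated range while the other 4 lay below it. Foxm1 fell by 0.27 on the log2 scale in carcinomas (SE 0.11, adjusted p = 0.034) and differed by 0.21 in adenomas (adjusted p = 0.16), which was not called. In carcinomas, 2 of its 3 other probe sets were called lower too, with log2 folds of -0.46 and -0.24, and the last gave -0.17. Their single values in adenomas are not given here, and the mean of all Foxm1 probe sets was not called there. The adenoma effect exceeded the carcinoma effect by more on another Foxm1 probe set than on the shown one, as given below. The call on the shown probe set ended without carcinoma array 1 or 5 (adjusted p = 0.099 and 0.10), without untreated array 1, 3 or 5 (0.055, 0.055 and 0.078), without untreated arrays 3 and 4 together (0.065), and in a fit of only the groups compared (0.058).

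The 4 spindle checkpoint genes rose in both tumour groups. Bub1 encodes a kinetochore kinase that signals unattached chromosomes. It read 3.52, 3.80, 4.65, 4.29 and 3.72 in untreated liver and 4.14, 3.97, 3.82, 3.93 and 3.51 with phenobarbital. Carcinomas gave 6.71, 7.17, 8.68, 6.44 and 7.04, and adenomas 5.29, 6.85, 7.29, 5.32 and 6.98. Adenoma arrays 1 and 4 lay well below the other adenomas but above all phenobarbital arrays. Bub1 rose 9.26-fold in carcinomas (log2 fold 3.21, SE 0.41, adjusted p = 8.7e-07) and 5.55-fold in adenomas (adjusted p = 0.00018). Bub1b encodes BubR1, part of the complex that inhibits Cdc20. Its untreated values were 5.37, 4.52, 5.37, 5.39 and 5.28, and its phenobarbital values 5.43, 5.08, 5.40, 5.05 and 5.10. Carcinoma arrays read 7.13, 6.997, 8.30, 7.65 and 7.38, and adenoma arrays 6.56, 7.04, 7.13, 6.21 and 6.44. Adenoma arrays 2 and 3 lay within the carcinoma range and the other 3 below it. Bub1b rose by 2.31 in carcinomas (SE 0.23, adjusted p = 3e-08) and by 1.47 in adenomas (adjusted p = 0.00011). Ttk encodes Mps1, the kinase at the head of the checkpoint. Untreated liver read 4.42, 4.48, 4.17, 4.84 and 4.08, and phenobarbital-treated liver 4.18, 3.94, 4.74, 4.02 and 4.48. In carcinomas Ttk read 5.15, 6.14, 7.49, 5.28 and 5.61, and in adenomas 5.77, 5.63, 6.09, 4.85 and 5.89. Carcinoma array 3 lay far above the rest of its group. Ttk rose by 1.53 in carcinomas (SE 0.34, adjusted p = 0.0005) and by 1.37 in adenomas (adjusted p = 0.0052). Mad2l1, the gene of the Mad2 inhibitor of Cdc20, rose by 1.85 (adjusted p = 3.5e-07) and 1.44 (adjusted p = 8.3e-05), with SE 0.22.

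Both partners of the anaphase-promoting complex rose. Cdc20 is the activator that the checkpoint holds back. Its untreated values were 5.66, 5.41, 7.86, 8.01 and 6.79, spread over more than 2 units, and its phenobarbital values 6.05, 6.57, 6.97, 6.21 and 5.99. Carcinomas read 8.94, 9.48, 10.00, 8.42 and 9.37, and adenomas 8.26, 7.90, 9.71, 7.75 and 8.71. Untreated arrays 3 and 4 came close to the lowest carcinoma array without reaching it. Cdc20 rose by 2.49 in carcinomas (SE 0.47, adjusted p = 0.00011) and by 2.11 in adenomas (adjusted p = 0.0025). The probe set shown for Cdc20 is of a kind that can also bind related transcripts, and a second probe set of another kind gave 1.41 in carcinomas and 1.44 in adenomas. Ube2c encodes the ubiquitin-conjugating enzyme of the complex. It read 5.18, 5.61, 7.47, 7.75 and 6.32 in untreated liver and 5.93, 5.86, 6.91, 5.32 and 5.75 with phenobarbital. Carcinoma arrays gave 8.75, 8.89, 10.60, 8.23 and 9.25, and adenoma arrays 8.46, 9.07, 9.67, 8.48 and 8.92. Both tumour groups lay above their controls. Ube2c had the largest adenoma change of the 39 genes, at 7.84-fold (log2 fold 2.97, SE 0.47, adjusted p = 0.00013), and rose by 2.68 in carcinomas (adjusted p = 5.4e-05).

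Of the 6 genes of Polo and Aurora kinases and chromosomal passengers, 5 rose in carcinomas and 6 in adenomas. Plk1 encodes the Polo kinase of mitotic entry and spindle assembly. It read 4.99, 5.35, 6.07, 6.11 and 5.55 in untreated liver and 5.79, 5.42, 5.54, 5.28 and 5.62 with phenobarbital. Carcinomas gave 6.53, 6.49, 7.85, 6.15 and 6.79, and adenomas 6.84, 7.35, 7.97, 6.24 and 7.29. Carcinoma array 4 lay just above the highest untreated array. Plk1 rose by 1.15 in carcinomas (SE 0.31, adjusted p = 0.0028) and by 1.61 in adenomas (adjusted p = 0.00069). Aurka encodes Aurora A, the kinase of centrosomes and spindle poles. Untreated arrays read 5.78, 6.03, 6.58, 6.70 and 5.60, and phenobarbital arrays 5.63, 6.51, 5.82, 5.85 and 5.96. Carcinoma values were 6.08, 6.50, 7.90, 5.99 and 7.22, and adenoma values 7.25, 7.68, 7.91, 6.79 and 7.76. Carcinomas and untreated liver overlapped, while adenomas lay above all phenobarbital arrays. Aurka rose by 1.52 in adenomas (SE 0.32, adjusted p = 0.0017) and its log2 fold in carcinomas, 0.60, was not called (adjusted p = 0.1). Without untreated arrays 3 and 4 the carcinoma value was 0.93 and called (adjusted p = 0.031), and it was called too without carcinoma array 1 or 4 (adjusted p = 0.049 and 0.039) and with array weights (0.041).

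Aurkb encodes Aurora B, the kinase that corrects wrong attachments. It read 3.80, 4.97, 4.17, 4.68 and 4.36 in untreated liver and 4.27, 4.54, 4.72, 4.07 and 4.07 with phenobarbital. In carcinomas it read 5.27, 6.25, 7.36, 5.39 and 6.16, and in adenomas 5.25, 5.22, 6.66, 4.50 and 5.72. Adenoma array 4 lay within the phenobarbital range. Aurkb rose by 1.69 in carcinomas (SE 0.37, adjusted p = 0.00051) and by 1.14 in adenomas (adjusted p = 0.03). The adenoma call ended without adenoma array 3 or 5 (adjusted p = 0.094 and 0.058) and without phenobarbital array 1, 4 or 5 (0.057, 0.066 and 0.068). Birc5 encodes survivin, a subunit of the Aurora B complex. Untreated liver read 3.29, 3.90, 5.90, 5.32 and 4.78, and phenobarbital-treated liver 4.45, 3.96, 5.16, 4.08 and 4.66. Carcinomas read 7.11, 7.68, 8.87, 6.87 and 7.80, and adenomas 7.28, 6.69, 8.12, 5.93 and 7.50. Every tumour array lay above its controls in spite of a wide spread in untreated liver. Birc5 rose 8.12-fold in carcinomas (log2 fold 3.02, SE 0.47, adjusted p = 1.3e-05) and 6.23-fold in adenomas (adjusted p = 0.00039). Cdca8, the gene of borealin in the same complex, read 7.44, 7.74, 8.39, 6.76 and 7.64 in carcinomas against 5.06, 5.42, 5.99, 5.70 and 5.25 in untreated liver. In adenomas it read 6.86, 6.56, 7.93, 6.03 and 6.59 against 5.79, 5.65, 5.03, 5.09 and 5.59 with phenobarbital. Tumours and controls were apart in both cases. Cdca8 rose by 2.11 in carcinomas (SE 0.31, adjusted p = 5.4e-06) and by 1.36 in adenomas (adjusted p = 0.0028). Tpx2, whose protein activates Aurora A on the spindle, rose by 1.63 (SE 0.32, adjusted p = 0.00016) and 1.31 (adjusted p = 0.005) in the same order.

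Of 6 centromere and kinetochore genes, 5 rose in each tumour group, with a different exception. Cenpa encodes the histone variant that marks centromeres. It read 6.59, 6.75, 7.71, 6.99 and 6.95 in untreated liver and 6.42, 6.72, 6.67, 6.60 and 6.53 with phenobarbital. Carcinoma values were 8.27, 8.43, 8.68, 7.45 and 8.16, and adenoma values 7.76, 7.76, 8.67, 7.14 and 7.74. The lowest carcinoma array lay within the untreated range. Cenpa rose by 1.20 in carcinomas (SE 0.25, adjusted p = 0.0003) and by 1.23 in adenomas (adjusted p = 0.0012). Nuf2, Ndc80 and Spc25 encode subunits of the Ndc80 complex, which holds microtubules at the kinetochore. Nuf2 read 4.27, 4.44, 5.10, 5.34 and 4.30 in untreated liver and 4.62, 4.24, 4.97, 4.15 and 4.52 with phenobarbital. In carcinomas it read 6.67, 7.61, 7.95, 6.27 and 7.44, and in adenomas 6.30, 7.06, 7.56, 6.42 and 6.95. Tumours were clear of controls. Nuf2 rose by 2.50 in carcinomas (SE 0.31, adjusted p = 5.8e-07) and by 2.36 in adenomas (adjusted p = 1.5e-05).

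Ndc80 changed less than its partner. It read 4.93, 4.90, 5.36, 5.33 and 5.40 in untreated liver and 4.91, 5.13, 5.23, 4.91 and 5.35 with phenobarbital. Carcinomas read 5.50, 6.02, 6.52, 5.25 and 5.65, and adenomas 5.25, 5.59, 5.96, 5.25 and 5.92. Tumour and control arrays overlapped in both comparisons. Ndc80 rose by 0.60 in carcinomas (SE 0.20, adjusted p = 0.013), a call that ended with arrays centred on their medians (log2 fold 0.38, adjusted p = 0.098). Its log2 fold in adenomas was 0.49 (adjusted p = 0.088) and was not called, although it was called with array weights (0.52, adjusted p = 0.041) and in a fit of only the groups compared (adjusted p = 0.048). Spc25 differed between the tumour groups. Untreated arrays gave 7.46, 7.30, 8.19, 7.99 and 7.83, and phenobarbital arrays 7.35, 7.83, 7.37, 7.21 and 7.12. Carcinomas gave 7.55, 7.63, 9.29, 6.88 and 7.85, and adenomas 8.06, 8.94, 8.90, 8.45 and 8.95. Carcinoma array 3 was the highest of all 20 arrays, while the other 4 carcinomas lay within or below the untreated range. Spc25 rose by 1.28 in adenomas (SE 0.31, adjusted p = 0.0053), and its carcinoma log2 fold of 0.08 was not called (adjusted p = 0.82) and was -0.14 with median centring and -0.11 with quantile normalization. Cenpe, the gene of a kinetochore motor, rose by 1.55 in carcinomas (SE 0.22, adjusted p = 5.3e-06) and by 1.39 in adenomas (adjusted p = 0.00015). Cenpf, the gene of a large kinetochore protein, rose by 2.12 (SE 0.31, adjusted p = 6e-06) and 1.50 (adjusted p = 0.0015).

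Kinesins, the motors that move along microtubules, were split: 4 of 6 rose in carcinomas and 4 in adenomas. Kif11 encodes Eg5, the motor that pushes spindle poles apart. It read 4.47, 3.88, 4.67, 4.34 and 4.11 in untreated liver and 3.85, 4.52, 4.46, 4.31 and 4.21 with phenobarbital. Carcinoma arrays gave 6.11, 6.99, 8.01, 5.87 and 7.03, and adenoma arrays 6.13, 6.24, 7.01, 5.19 and 5.60. Both tumour groups stood above all controls. Kif11 rose by 2.51 in carcinomas (SE 0.34, adjusted p = 2.3e-06) and by 1.76 in adenomas (adjusted p = 0.00077). Kif20a encodes a motor of the central spindle and cytokinesis. Untreated liver read 4.92, 4.93, 4.96, 5.30 and 5.20, and phenobarbital-treated liver 4.79, 4.77, 5.61, 4.88 and 4.80. Carcinomas read 6.18, 6.93, 7.15, 5.95 and 6.96, and adenomas 6.67, 6.68, 7.75, 5.89 and 7.31. No tumour array overlapped with its controls. Kif20a rose by 1.57 in carcinomas (SE 0.29, adjusted p = 7.4e-05) and by 1.89 in adenomas (adjusted p = 7.4e-05). Kif2c encodes MCAK, which takes microtubule ends apart. It read 6.34, 6.41, 6.37, 6.15 and 6.39 in untreated liver and 6.74, 6.71, 6.48, 6.34 and 6.54 with phenobarbital. In carcinomas it read 6.09, 6.41, 6.50, 5.78 and 6.15, and in adenomas 6.45, 6.61, 6.46, 6.61 and 6.70. Each tumour group overlapped with its controls. Its log2 folds of -0.14 in carcinomas (SE 0.12, adjusted p = 0.28) and 0.01 in adenomas (adjusted p = 0.98) were not called. Another, dimmer probe set of Kif2c, of the kind that can bind related transcripts, gave 1.37 in carcinomas and 1.21 in adenomas (adjusted p = 0.00012 and 0.0022), while another was called lower in carcinomas at -0.43. The call depended on the scaling as well: in carcinomas the shown probe set was called lower with median centring (-0.36, adjusted p = 0.015) and with quantile normalization (-0.28, adjusted p = 0.049), and with the mean of all probe sets Kif2c was called higher in adenomas (0.43, adjusted p = 0.024).

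Kif22, a motor of chromosome arms, rose by 1.76 in carcinomas (SE 0.31, adjusted p = 6.1e-05) and by 1.36 in adenomas (adjusted p = 0.0034). With probe sets that can bind related transcripts left out, both Kif22 calls ended (log2 folds 0.33 and 0.39, adjusted p = 0.19 and 0.23), although another probe set gave 1.77 and 1.42. Kif23, a motor subunit of the centralspindlin complex, rose by 1.27 in carcinomas (SE 0.23, adjusted p = 7.3e-05), and its adenoma log2 fold of 0.58 was not called (adjusted p = 0.074). The latter was called with array weights (0.66, adjusted p = 0.025), in a fit of only the groups compared (adjusted p = 0.028) and without phenobarbital array 3 (0.72, adjusted p = 0.031). Kif4, a motor of chromosome arms and the midzone, rose by 0.55 in adenomas (SE 0.19, adjusted p = 0.036), and its carcinoma log2 fold of 0.20 was not called (adjusted p = 0.35) and was -0.02 with median centring. The adenoma call of Kif4 ended with median centring (adjusted p = 0.068) and without adenoma array 1, 2 or 3 (0.056, 0.058 and 0.083) or phenobarbital array 1, 3 or 4 (0.095, 0.070 and 0.053).

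All 5 genes of the spindle midzone and cytokinesis rose in both tumour groups. Nusap1 encodes a protein that bundles spindle microtubules near chromosomes. It read 4.83, 4.78, 6.54, 6.31 and 5.44 in untreated liver and 5.30, 4.80, 5.23, 4.84 and 4.84 with phenobarbital. Carcinomas gave 7.47, 7.84, 9.29, 6.91 and 7.97, and adenomas 7.64, 7.94, 8.39, 7.29 and 7.82. Both tumour groups lay above their controls, with a narrower range in adenomas than in carcinomas. Nusap1 rose 7.03-fold in adenomas (log2 fold 2.81, SE 0.38, adjusted p = 2e-05) and 4.98-fold in carcinomas (adjusted p = 2.1e-05). Prc1 encodes the crosslinker of midzone microtubules. Untreated arrays read 6.56, 6.33, 6.97, 6.76 and 6.59, and phenobarbital arrays 5.96, 6.47, 6.46, 6.42 and 6.19. Carcinoma values were 8.79, 8.30, 9.91, 7.97 and 8.98, and adenoma values 7.75, 7.55, 9.05, 7.43 and 8.15. Tumours and controls did not overlap. Prc1 rose by 2.15 in carcinomas (SE 0.31, adjusted p = 4.1e-06) and by 1.69 in adenomas (adjusted p = 0.00043). Anln encodes anillin, the scaffold of the contractile ring. Its untreated values were 4.40, 4.25, 5.56, 5.56 and 3.99, and its phenobarbital values 4.85, 5.05, 5.44, 4.70 and 4.95. In carcinomas Anln read 6.99, 7.47, 8.55, 6.67 and 7.44, and in adenomas 6.47, 6.79, 7.11, 6.18 and 6.79. Every tumour array lay above its control group. Anln rose by 2.67 in carcinomas (SE 0.33, adjusted p = 6.1e-07) and by 1.67 in adenomas (adjusted p = 0.00094).

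Racgap1, the partner of Kif23 in centralspindlin, had the smallest change of this group. It read 5.43, 5.07, 5.82, 5.44 and 5.28 in untreated liver and 5.41, 5.20, 5.99, 5.40 and 5.62 with phenobarbital. Carcinomas read 5.99, 6.48, 7.41, 5.59 and 6.63, and adenomas 6.31, 6.36, 7.27, 6.38 and 6.67. Carcinoma array 4 lay within the untreated range. Racgap1 rose by 1.01 in carcinomas (SE 0.26, adjusted p = 0.0022) and by 1.07 in adenomas (adjusted p = 0.0053). Ect2, the exchange factor that turns on RhoA at the cleavage site, rose by 1.81 in carcinomas (SE 0.36, adjusted p = 0.00018) and by 1.99 in adenomas (adjusted p = 0.0004).

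**Figure D3:**
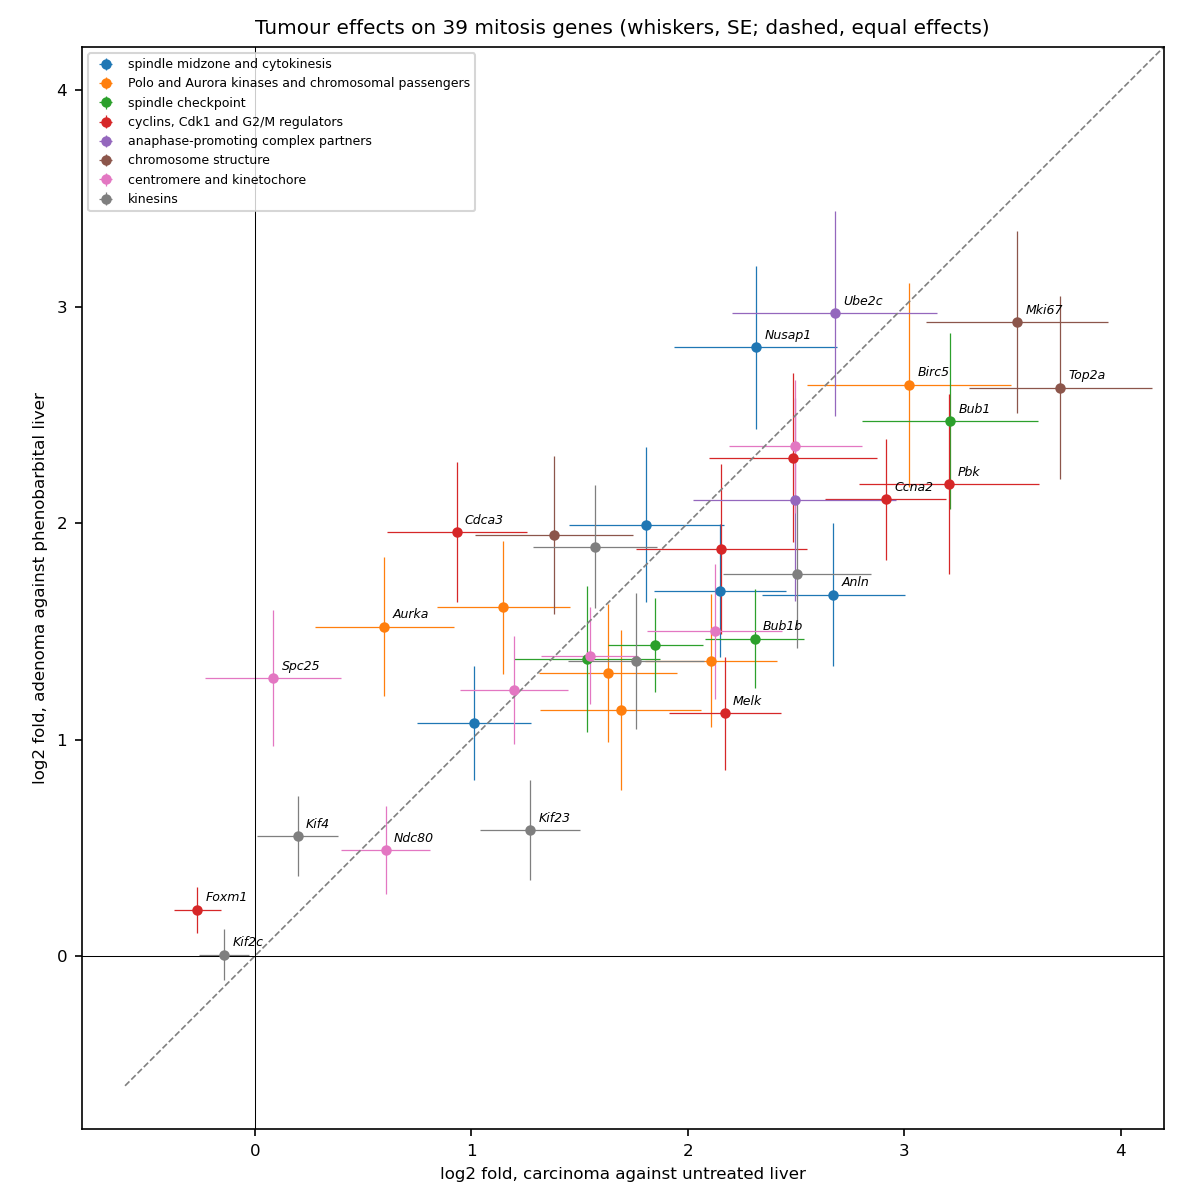
Log2 fold of each of the 39 mitosis genes in carcinomas against untreated liver (x axis) and in adenomas against phenobarbital-treated liver (y axis), coloured by role, with whiskers of 1 SE and a dashed line of equal effects. Most genes lie well above 0 on both axes, 25 of them below the line and 14 above it, with Foxm1 and Kif2c near 0.

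Other probe sets of the same genes did not all follow. The 39 genes had 81 probe sets, and 25 genes had more than 1. For the genes called higher in carcinomas, 34 further probe sets existed, of which 16 were called higher too, 6 were called lower and 12 were not called. In adenomas there were also 34, of which 14 were called higher, 0 lower and 20 not called. The genes with a probe set called against the shown one in carcinomas were Cdc20 (-0.51), Cdca3 (-0.30 and -0.51), Cenpa (-0.31), Top2a (-0.43) and Tpx2 (-0.59). The last of these gave 0.86 in adenomas, where it was called higher. Averaging a gene's probe sets gave smaller changes. With it Top2a stood at 1.25 in carcinomas and 0.93 in adenomas, Cenpf at 0.82 and 0.47, Cenpa at 0.37 and 0.42, Cdc20 at 1.13 and 1.11, and Nusap1 at 1.14 and 1.53. Bub1 stood at 2.06 and 1.24, Bub1b at 1.32 and 0.83, Ttk at 0.81 and 0.66, Anln at 1.54 and 0.80, and Kif11 at 1.40 and 1.17. Tpx2, Kif23 and Cdca5 stood at 0.73, 0.63 and 0.90 in carcinomas, and Aurka and Spc25 at 0.69 and 0.80 in adenomas. All of these stayed called. The places of these probes in the transcripts were not used here.

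Adenomas and carcinomas were compared directly as well. Of the 39 genes, 3 were higher in adenomas (Spc25, Kif2c and Foxm1), 8 were lower (Top2a, Melk, Ccna2, Pbk, Bub1b, Cdca8, Prc1 and Kif23) and 28 were not called. Among the genes called lower, 1 had another probe set that was called higher. That gene is not named here, and no alternative run given below used that probe set alone. Of all genes, 33.7% were called higher and 28.7% lower, so the share called among mitosis genes was below that of 62.3% for all genes. The median log2 fold of the list was -0.38 against 0.10 for all genes. None of the 39 genes had groups that did not overlap, whereas 21.8% of all genes were higher and 20.1% lower in adenomas without overlap. With each array centred on its median, a scaling that moved the median of all genes to 0.22, 5 genes were higher and 6 lower.

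The lower genes were led by Top2a, at a log2 fold of -1.51 (SE 0.42, adjusted p = 0.0043). Melk followed at -1.28 (SE 0.26, adjusted p = 0.00025), Ccna2 at -1.16 (SE 0.28, adjusted p = 0.0014) and Pbk at -1.10 (SE 0.42, adjusted p = 0.028). Bub1b was at -0.82 (SE 0.23, adjusted p = 0.0045). Cdca8 and Prc1 were near this value, at -0.80 and -0.80 (adjusted p = 0.03 and 0.028). Kif23 read 7.04, 7.72, 8.43, 6.9985 and 7.54 in carcinomas and 7.09, 6.85, 7.30, 6.69 and 7.07 in adenomas. Adenoma arrays 2 and 4 lay below the carcinoma range and the other 3 within its lower part. The log2 fold of Kif23 was -0.54 (SE 0.23, adjusted p = 0.047). Among the higher genes, Spc25 had 0.82 (SE 0.31, adjusted p = 0.03), Kif2c 0.38 (SE 0.12, adjusted p = 0.0083) and Foxm1 0.34 (SE 0.11, adjusted p = 0.0091). Mki67 was not called, with an unadjusted 95% interval of -1.76 to -0.00 (adjusted p = 0.076), although it was called without adenoma array 3, and neither was Cdk1, with -1.25 to 0.40 (adjusted p = 0.35). These intervals include sizeable differences, so the genes were not shown to be alike in the tumour groups.

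The calls on Top2a, Melk, Ccna2, Bub1b and Foxm1 held in each alternative run, although with probe sets averaged Top2a stood at -0.48 and Bub1b at -0.43, while those on Cdca8, Kif23, Pbk, Prc1, Spc25 and Kif2c ended in at least 1. The count of lower genes depended on single arrays: it was 16 without adenoma array 3 and 14 without carcinoma array 4, 5 without carcinoma array 2 or adenoma array 1, and 4 without carcinoma array 3 or 5 or adenoma array 2 or 4. The count of higher genes was 6 without carcinoma array 3 and 5 without adenoma array 4.

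**Figure D4:**
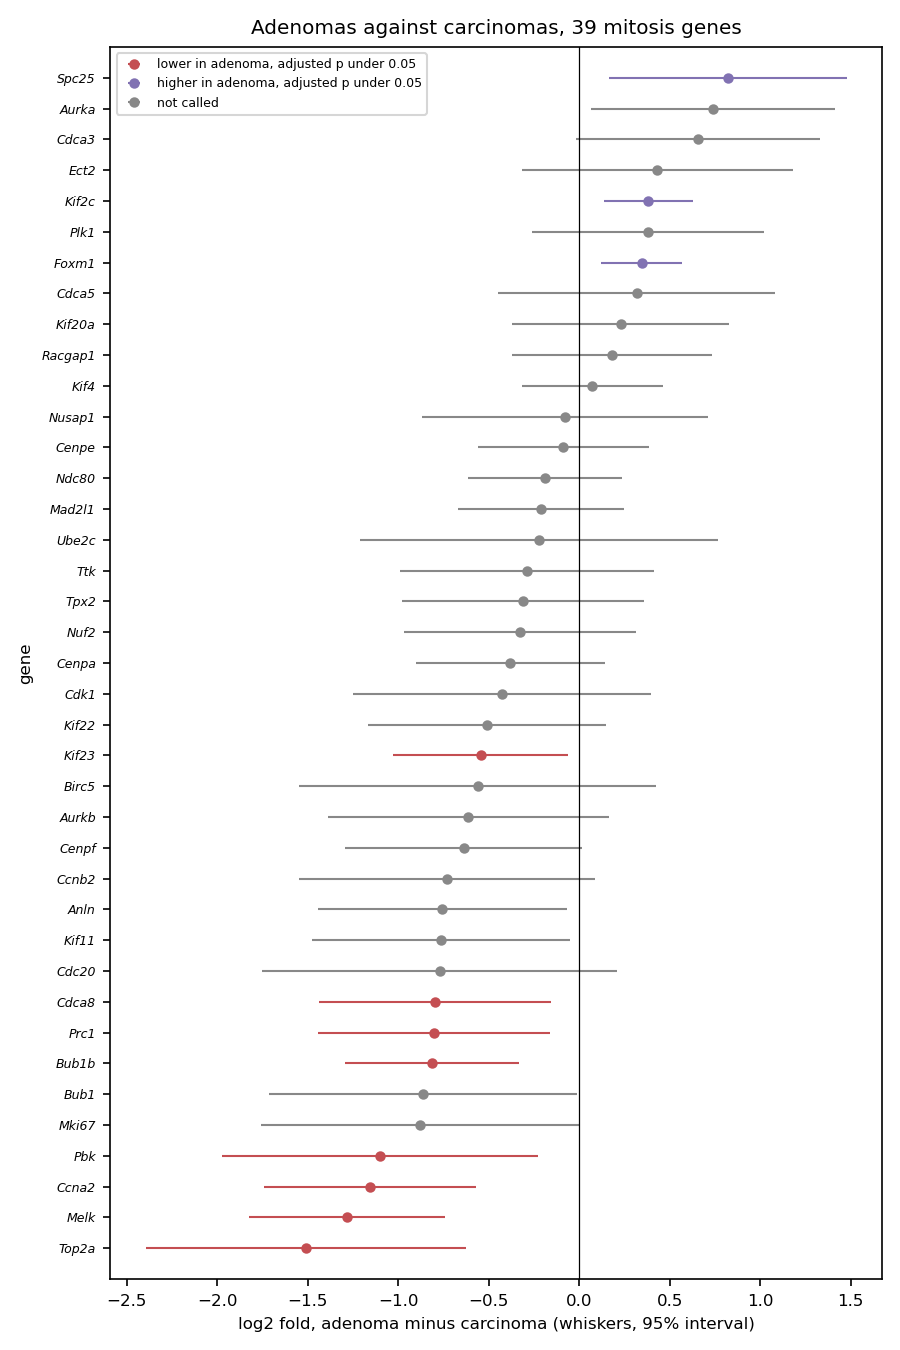
Log2 fold of the 39 mitosis genes in adenomas minus carcinomas, sorted, with 95% intervals. Red points mark the 8 genes called lower and purple points the 3 called higher; most intervals are wide and cross 0.

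The change from the matching non-tumour liver was also compared between the tumour groups, as an interaction. Tumour stage and diet cannot be told apart in this comparison or in the direct one. Of the 39 genes, 4 were called, against 46.7% of all genes. Of all genes, 23.2% were positive and 23.5% negative, and 49.76% of the called genes were positive, or 61.6% with median centring. Melk rose less in adenomas than in carcinomas, with a difference of -1.05 (SE 0.37, adjusted p = 0.024). Bub1b also rose less, with -0.84 (SE 0.32, adjusted p = 0.04). Spc25 and Foxm1 differed in the other direction, with 1.20 (SE 0.45, adjusted p = 0.033) and 0.48 (SE 0.15, adjusted p = 0.014). For the largest changes the difference was not called: it was -1.09 for Top2a (SE 0.60, adjusted p = 0.14) and -0.59 for Mki67 (SE 0.59, adjusted p = 0.43). Without untreated arrays 3 and 4, Top2a, Ccna2 and Anln were called in this comparison. The calls on Melk and Foxm1 held in each alternative run, while of 30 run the Bub1b call ended in 12 and the Spc25 call in 11, for instance without untreated arrays 3 and 4 for Spc25 (0.97, adjusted p = 0.12).

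The mitosis genes moved together from array to array within a group as well. Carcinoma array 3 had the highest value of its group for 39 of 39 genes, and carcinoma array 4 the lowest for 32. Adenoma array 3 was highest for 34 genes and adenoma array 4 lowest for 25. In phenobarbital-treated liver, array 3 was highest for 17, and in untreated liver for 18. Array 3 was most often the highest in every group. What the array numbers stand for was not stated, and their part in this was not tested. In the tumours the order was thus much the same whichever gene was read. Over the list, the mean level was 8.54 on carcinoma array 3 and 6.87 on carcinoma array 4. In adenomas it was 7.89 on array 3 and 6.64 on array 4. The 5 carcinomas ranged over more than 1 unit, more than the difference between the tumour group means of 7.54 and 7.21. The mean level of the DNA replication genes, a list of 34 with no gene in common, was 8.71 and 7.55 on the same carcinoma arrays and 8.05 and 7.56 on the same adenoma arrays, the highest and the lowest of each group. The median deviation of all genes on carcinoma array 3 was -0.01. The deposited values were quantile normalized, which makes array medians alike, so this value cannot show whether the order was particular to these genes. Some marker lists of other cells were also highest on array 3 of a tumour group, while others were not. The erythroid marker mean was 5.27 on carcinoma array 3 and 4.33 to 4.39 on the other 4 carcinomas. In adenomas it was 6.70 on array 1 and 5.22 on array 3. The neutrophil and myeloid precursor marker mean was 6.38 on adenoma array 3 and 5.29 to 5.91 on the other 4 adenomas. In carcinomas it was 5.30 on array 3 and 5.22 on array 4. The stellate cell and fibroblast marker mean was lowest on carcinoma array 3, at 10.05, and highest on adenoma array 4, at 9.65. The hepatocyte marker mean was 10.1 and 10.2 on carcinoma arrays 3 and 4, with 6.86 on carcinoma array 2 the lowest, and 12.7 and 13.5 on adenoma arrays 3 and 4. The part of these cells in the order was not tested.

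The spread of the list was large for these arrays. Within a group, the median SD of the 39 genes was 0.46 for untreated arrays, 0.29 for phenobarbital arrays, 0.69 for carcinoma arrays and 0.50 for adenoma arrays. For all genes it was 0.17, 0.14, 0.21 and 0.23 in the same order. With carcinoma array 3 and adenoma array 3 left out together, 34 genes rose and 1 fell in carcinomas and 35 rose in adenomas.

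**Figure D5:**
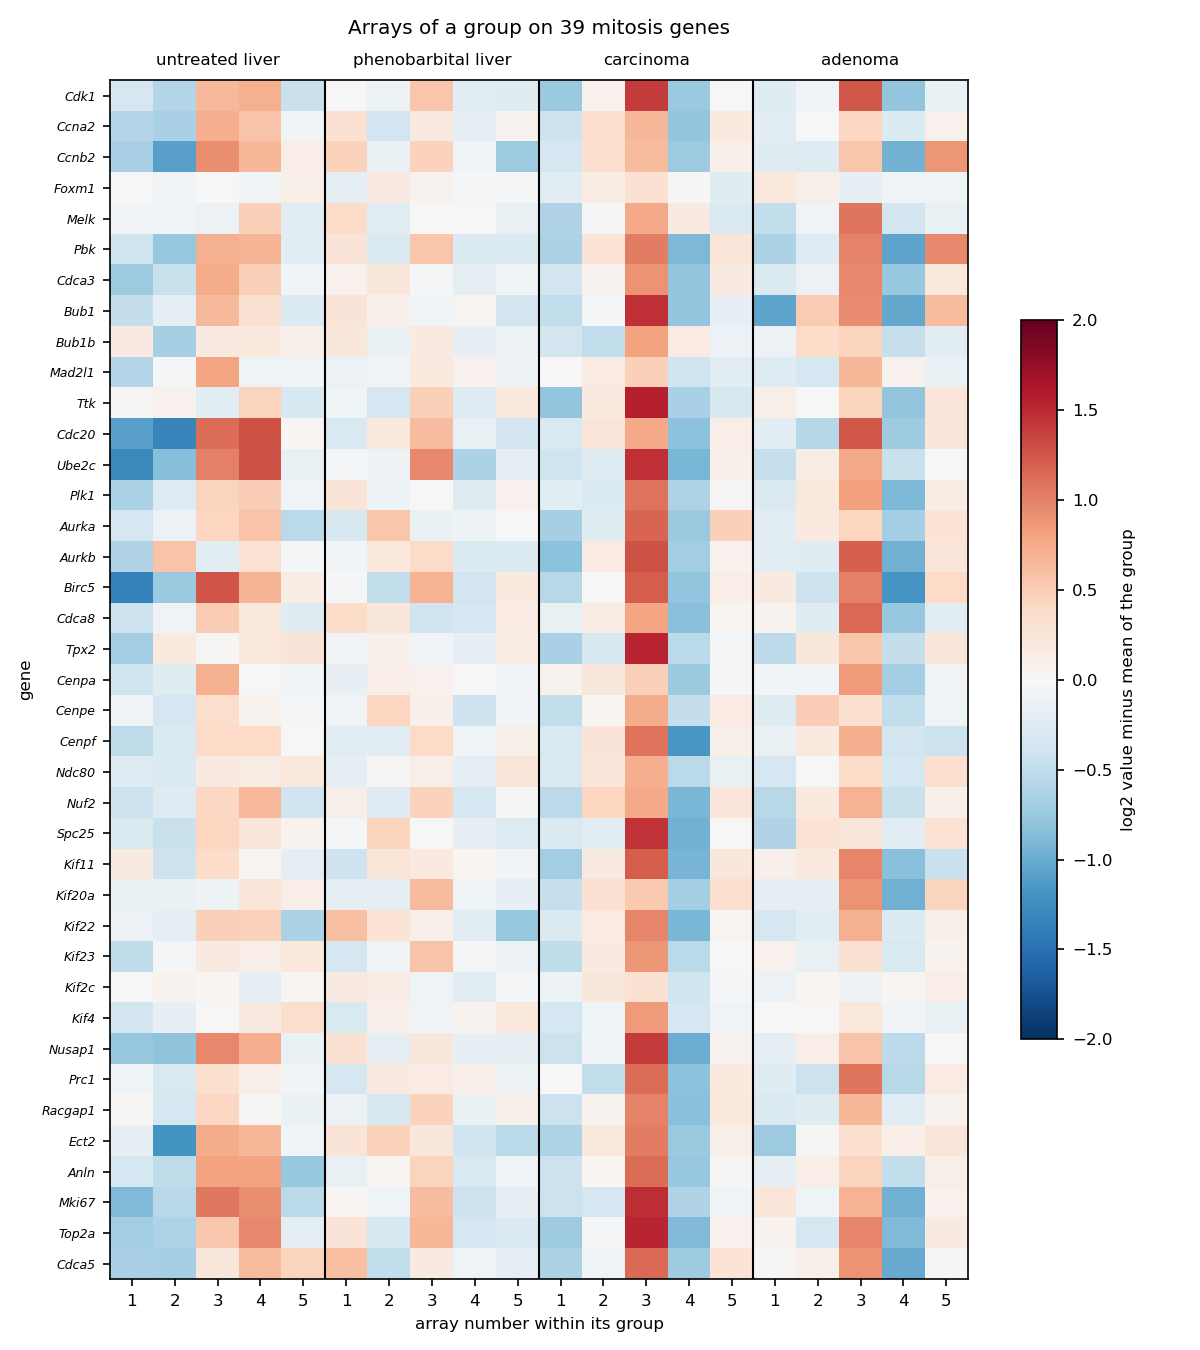
Log2 value of each of the 39 mitosis genes (rows) on each of the 20 arrays (columns) minus the mean of the array's group, blue below and red above it. Carcinoma array 3 and adenoma array 3 are red in nearly every gene and arrays 4 of both groups mostly blue, while untreated arrays 3 and 4 stand above untreated arrays 1 and 2.

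Other genes of cell division, from lists of the same pathways, moved less uniformly. Their counts stand beside 31.5% of all genes that rose and 37.7% that fell in carcinomas, and 13.5% and 11.3% in adenomas. Of 32 further kinetochore and checkpoint genes, 19 rose and 5 fell in carcinomas, and 15 rose and 3 fell in adenomas. Zwilch, of the complex that recruits dynein to kinetochores, rose by 2.31 and 1.26. Cenpc1, of the inner kinetochore, rose by 2.36 and Trip13, which remodels Mad2, by 1.87 in carcinomas, and the centromere gene Cenpi rose by 1.27 and Knstrn by 1.24 in adenomas. Spc24, which binds Spc25 in the Ndc80 complex, fell by 2.33 in carcinomas and by 1.20 in adenomas (adjusted p = 2e-06 and 0.0082), opposite to the Ndc80 complex genes that rose. Nsl1 and Pmf1, of the Mis12 complex, fell by 1.13 and 1.09 in carcinomas and by 0.86 and 0.36 in adenomas. Of 32 further spindle, motor and centrosome genes, 23 rose and 4 fell in carcinomas and 20 rose and 0 fell in adenomas. Stmn1, whose protein destabilises microtubules, rose by 4.70 and 2.38, and Cep55, needed for the final cut between daughter cells, by 2.90 and 2.38. Plk4, the kinase of centriole copying, rose by 2.89 in carcinomas and Shcbp1 by 2.28 in adenomas, while Troap, Kif15 and Cit fell by 0.75, 0.47 and 0.27 in carcinomas. Of 24 cohesin, condensin and separase genes, 20 rose in carcinomas and 15 rose and 1 fell in adenomas, with the condensin genes Smc2 and Ncapd2 at 2.65 and 2.58 and the passenger gene Incenp at 1.97 in carcinomas. In adenomas the cohesin acetyltransferase gene Esco2 rose by 2.83, the cohesin protector gene Sgo2a by 2.04 and the condensin gene Ncapg2 by 1.84, and Wapl, which opens cohesin rings, fell by 0.83.

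Regulators of the programme were mixed. Of 26 G2/M entry, DREAM and MuvB genes, 14 rose and 5 fell in carcinomas and 8 rose and 1 fell in adenomas. Ccne2, the gene of cyclin E2, rose by 2.32 and 1.23, Bora and Cks1b by 2.09 and 1.88 in carcinomas, and the repressor gene E2f8 and Cdkn3 by 1.91 and 1.61 in adenomas. Ccnf, the gene of cyclin F, fell by 1.49 and Cks2 by 0.43 in carcinomas. Nfyb, a subunit of the CCAAT-binding NF-Y, fell by 1.04 in carcinomas, and Lin52, a subunit of MuvB, fell by 0.54 in adenomas. Of 22 brakes on the cell cycle, 14 rose and 4 fell in carcinomas, and 6 rose and 0 fell in adenomas. Cdkn1a, the gene of the inhibitor p21, rose by 4.48 and 2.38 (adjusted p = 6.8e-11 and 9.1e-06), and Rbl1, the gene of the pocket protein p107, by 3.87 and 2.12. Cdkn2b, the gene of the inhibitor p15, rose by 3.18 in carcinomas, and Cdkn2c by 1.56 in adenomas. E2f4, Tob1 and Wee1, the kinase that holds Cdk1 inactive, fell by 0.65, 0.65 and 0.55 in carcinomas. Cdkn1a and Rbl1 thus rose in the same groups as the mitosis genes. Of 15 subunits of the anaphase-promoting complex, 11 rose and 3 fell in carcinomas, led by Cdc23 at 2.74, Cdc16 at 1.72 and Ube2s at 1.39, and Anapc15, Cdc26 and Anapc13 fell by 0.94, 0.46 and 0.32. In adenomas 4 rose and 1 fell, with Anapc4 at 0.54, Cdc23 at 0.43, Anapc2 at 0.39 and Cdc26 at -0.64. In adenomas, the 6 of 22 brakes and 5 of 15 complex subunits called lay near the 24.7% of all genes called there. Of 34 DNA replication genes, 26 rose and 4 fell in carcinomas, and 18 rose and 2 fell in adenomas. Uhrf1, which carries DNA methylation through replication, rose by 2.83 and 2.31, Rfc3 by 2.49 in carcinomas and the licensing gene Cdt1 by 2.13 in adenomas. Mcm6, of the replicative helicase, rose by 2.58 and 2.05, whereas Mcm10, which helps to load the replication fork, fell by 4.02 and 2.18 (adjusted p = 6.7e-10 and 3.9e-05). Fen1 fell by 0.38 and 0.43, and Orc1 by 0.54 in carcinomas. Median log2 folds of these lists in carcinomas ran from 0.45 for the G2/M entry list to 1.26 for the spindle list, each below the 1.85 of the mitosis genes. With probe sets averaged, the median of the mitosis genes was 1.32, and the other lists were not read in that way.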

How the data were processed

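Expression was measured on Affymetrix arrays in 20 samples, 5 in each of 4 groups taken from the sample titles. The authors deposited log2 values, made with RMA (background correction, quantile normalization and a summary over the probes of a set) per the submitters' processing notes, with no version given. The number of arrays limits the precision, since array values carry no counts. Probe sets were named through the platform annotation given with the series: 34945 of 45037 had 1 symbol, 932 several and 9160 none, and 34741 of the former matched RefSeq. Genes with several probe sets, 9010 of 18193, were represented by the one with the highest mean.

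limma 3.58.1 (R 4.3.3) was fitted over all 18193 genes in 1 model of 4 groups with 16 residual degrees of freedom and a prior of 3.21. A gene was called at a Benjamini-Hochberg adjusted p under 0.05 within its comparison, and p-values are two-sided. Values of other probe sets of a gene come from the same test over all probe sets with 1 symbol. Promoters and figures were made with Python 3.11.15, pandas 2.3.3 and matplotlib 3.10.9. The procedure was tested on simulated data: for the carcinoma comparison over 18193 genes, 82% of changes of 1 and 96% of changes of 2 on the log2 scale were recovered. Only 100 genes of each size were changed, with independent noise for each gene, whereas 69.2% of genes were called in the real comparison. The mitosis genes moved together and spread more, with a median SD in carcinomas of 0.69 against 0.21 for all genes. The simulated shares therefore do not give the recovery for them.

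The members and lists were chosen with earlier results of these data known. Array values were given for a panel of well-known genes and for the largest and smallest changes of each role. Genes whose call went against the rest were named, as were genes with a conflicting probe set in carcinomas against untreated liver. Of every other list, up to 3 called genes with the largest rise and up to 3 with the largest fall were named. Melk, Bub1b, Cdca8 and Kif23 were added after their values were seen. The alternatives tried were a filter on dim probes, the mean of all probe sets, dropping probe sets that can bind related transcripts, a trended robust prior, median centring, quantile normalization, array weights, the replicate number as a block, only the groups compared, and leaving out arrays. Leaving out carcinoma and adenoma arrays 3 together was chosen after seeing the data.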

Additional observations from a re-analysis of the deposited data

Results flagged for a closer look

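In 9 of 156 checks of a mitosis gene within a group of 5 arrays, 1 array stood apart from the other 4, where chance gives about 1 in 20, or 7.8. The measure was the gap to the nearest array as a share of the group's range. Carcinoma array 3 was the highest in 3 of them: Mki67 (10.92 against 8.84 to 9.37, share 0.746), Tpx2 (8.15 against 5.97 to 6.59, share 0.715) and Kif4 (7.19 against 5.99 to 6.28, share 0.76). Adenoma array 3 was the highest for Melk (6.62 against 5.07 to 5.49, share 0.73), and phenobarbital array 3 for Kif20a (5.61 against 4.77 to 4.88, share 0.872). In untreated liver, array 4 was the highest for Melk (5.14 against 4.44 to 4.61, share 0.757) and the lowest for Kif2c (6.15 against 6.34 to 6.41, share 0.719). Also in untreated liver, array 2 was the lowest for Bub1b (4.52 against 5.28 to 5.39, share 0.88) and array 1 for Tpx2 (4.31 against 5.01 to 5.25, share 0.743).

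For 4 genes the tumour effect differed between adenomas and carcinomas by limma's interaction test with Benjamini-Hochberg adjustment. The adenoma effect minus the carcinoma effect was -1.051 for Melk (adjusted p = 0.024), -0.842 for Bub1b (adjusted p = 0.04), 0.479 for Foxm1 (adjusted p = 0.014) and 1.198 for Spc25 (adjusted p = 0.033). Another probe set of Foxm1 gave 0.97 (adjusted p = 0.0022), and another of Tpx2, a gene not called on its shown probe set, gave 1.44.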

How the results depend on the processing

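The counts of genes that rose in tumours held: with each alternative, 33 to 35 rose in carcinomas and 33 to 37 in adenomas, and with phenobarbital none was called. Without 1 array the carcinoma count was 33 to 35 and the adenoma count 33 to 35. The cause of the changes below was not tested. The count called lower in carcinomas was 2 with median centring and with quantile normalization, and 0 with only the groups compared and without untreated arrays 3 and 4. It was 0 to 1 without 1 array. In adenomas against carcinomas, 5 genes were higher with median centring; 4 were lower with array weights and with only the groups compared. Without 1 array, 2 to 6 were higher and 4 to 16 lower. The replicate numbers were also fitted as a block, although no label says that they pair the samples. Over all genes, deviations from the group mean of same-numbered arrays of different groups correlated at -0.11 to 0.13. This correlation cannot show whether the numbers pair the samples for the mitosis genes. With the replicate block, 5 genes were higher and 13 lower, Mki67 among them, in adenomas against carcinomas, Kif23 and Ndc80 were called in adenomas (adjusted p = 0.018 and 0.029), and for the difference of the tumour effects 4 were negative. That last count was 1 with the mean of all probe sets, median centring, quantile normalization and array weights, and 5 without untreated arrays 3 and 4, where the positive count was 1. Without 1 array the negative count was 1 to 4 and the positive count 1 to 5, and the latter was 5 with arrays 3 of both tumour groups left out together. With the mean of all probe sets, the adenoma median was 1.17 in place of 1.61, and the carcinoma median 1.32 in place of 1.85. Without 1 array, medians were -0.24 to -0.02 with phenobarbital, 1.73 to 2.05 in carcinomas, 1.41 to 1.79 in adenomas, -0.60 to -0.14 between the tumour groups and -0.46 to 0.03 for the difference. Signs turned only for small effects that were not called. The phenobarbital median was 0.15 without untreated arrays 3 and 4. For Mki67 and Top2a with phenobarbital they were 0.38 and 0.081 without untreated arrays 3 and 4. For Spc25 in carcinomas they were -0.071 with the mean of all probe sets, -0.14 with median centring, -0.11 with quantile normalization, -0.28 with arrays 3 left out together, and -0.28 to 0.33 without 1 array. For Kif2c in carcinomas the value was 0.24 with the mean of all probe sets. For Kif4 in carcinomas it was -0.022 with median centring, -0.015 with arrays 3 left out together, and -0.015 to 0.29 without 1 array. For Kif2c in adenomas it was -0.073 with median centring, -0.064 with quantile normalization, -0.019 with array weights, and -0.049 to 0.053 without 1 array. Over the named genes and alternatives, 1850 values kept their direction and side of the threshold, 95 calls ended and 14 were gained.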
